A study of Homo sapiens with 6 samples.

Results

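Messenger RNA of 9 nucleotide synthesis enzymes was followed in IOMM-Lee cells kept with little oxygen. The enzymes were taken by symbol, RRM1, RRM2, TYMS, TK1, CAD, DHODH, UMPS, PPAT and IMPDH2, and all 9 were found among the 61859 genes of the count table and passed the filter on low counts. IOMM-Lee is an established cell line grown from a malignant meningioma, so all values describe a single line of this brain-lining tumour. The normoxia group held 3 libraries and the hypoxia group 3, each called a biological replicate by the labels. Hypoxia cultures stayed 48 h in a workstation with 0.2% oxygen, and the normoxia libraries carry the same time label. The normoxia libraries are named so in their titles and treatment labels, but their protocol text repeats that of the hypoxia workstation, and no oxygen level of their own is given in the sources used here. Both groups grew at 37 °C and 5% CO2 in DMEM with 10% serum, penicillin and streptomycin, and no allele or agent other than oxygen differed by the labels.

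Cells build nucleotides from small precursors (de novo synthesis) or recycle bases and nucleosides (salvage). In the pyrimidine branch CAD starts the ring, DHODH oxidises it at the inner mitochondrial membrane by passing electrons to the respiratory chain, and UMPS makes UMP. In the purine branch PPAT catalyses the committed step, and IMPDH2 commits the product, IMP, to guanine nucleotides. Ribonucleotide reductase, built from a large subunit (RRM1) and a small subunit (RRM2 or RRM2B) that needs oxygen and iron to form its radical, turns ribonucleotides into the deoxyribonucleotides of DNA. TYMS makes thymidylate de novo and TK1 makes it by salvage, and RRM2, TYMS and TK1 are known for high expression around S phase, when DNA is copied.

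The sequences below show what the start regions of these genes hold, and any link of these letters to the changes was not tested. RefSeq windows of 250 bases before a start site (GRCh38.p14) were at hand for 8 of the 9 genes, all but IMPDH2, with 2 overlapping windows each for RRM2 and TK1. They were searched on both strands, and a gene counts if any of its windows held the letters. Shares over all windows count each window on its own, which is not the same unit. The gene positions given further below are from GENCODE and begin upstream of the RefSeq starts for RRM2, TYMS and TK1. The letters marked for these genes lie before a RefSeq start but within the GENCODE positions. The core bound by E2F factors, which drive S-phase genes, was searched for in the form TTCCCGC, in the form TTCGCGC, in the form TTGCCGC and in the form TTGGCGC, and it lay before the start of 4 genes, RRM1, RRM2, TYMS and TK1. These are the 4 that make deoxyribonucleotides, and no window of CAD, UMPS, DHODH or PPAT held the core. Over all 35116 windows of this length 10.9% held it. The capitals mark the core, which reads reversed in 3 of these 4 sites.
RRM1 (chr11:4094451-4094479, plus strand): caagaaaaacgTTCCCGCcggttaggttt
RRM2 (chr2:10122365-10122393, plus strand): ggggcccgcgcGCGCCAAggccgccgaga
TYMS (chr18:657603-657631, plus strand): gcgggacggccGCGGGAAaaggcgcgcgg
TK1 (chr17:78187053-78187075, minus strand): aagcggtcggcGCGGGAAccagg

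RRM2 and TK1 also held repeated CCAAT boxes, the letters bound by the factor NF-Y, here in capitals. RRM2 had 3 within 3 near-copies of one stretch, and TK1 had 2 on the opposite strand (ATTGG). The other RRM2 window held 1 more box, not shown, 249 bases before its start. This box, on either strand, was in 32.0% of all windows and before 5 of the 8 genes.
RRM2 box 1 (chr2:10122604-10122632, plus strand): ggcaaggcgcagCCAATgggaagggtcgg
RRM2 box 2 (chr2:10122634-10122662, plus strand): ggcatggcacagCCAATgggaagggccgg
RRM2 box 3 (chr2:10122661-10122689, plus strand): ggggcaccaaagCCAATgggaagggccgg
TK1 box 1 (chr17:78187113-78187141, minus strand): ggccgggcgctgATTGGccccatggcggc
TK1 box 2 (chr17:78187082-78187110, minus strand): ggccggctcgtgATTGGccagcacgccgt

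The E-box CACGTG, read by MYC and related factors, was before DHODH and PPAT and in 6.34% of all windows. Its last letters ACGTG, the only form searched of the core that HIF factors bind, were before 4 genes (CAD, DHODH, PPAT and TK1). They were in 18.5% of all windows, and every E-box counts among them. The last 60 bases before the CAD start are shown because CAD changed most of the 9, with the ACGTG core in capitals. PPAT is shown because it starts back to back with PAICS, another purine enzyme gene. The 125 bases between their annotated starts, read on the PPAT strand, hold 3 GC boxes (GGGCGG, here reversed and in capitals), letters found in 42.6% of all windows. A match is a description of letters and no measurement of binding.
CAD (chr2:27217309-27217368, plus strand): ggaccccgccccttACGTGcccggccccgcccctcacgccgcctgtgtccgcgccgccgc
PPAT to PAICS (chr4:56435616-56435740, minus strand): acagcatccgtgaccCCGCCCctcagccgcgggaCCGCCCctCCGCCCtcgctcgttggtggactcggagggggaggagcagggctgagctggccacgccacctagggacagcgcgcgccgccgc

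Of the 9 enzymes, 7 fell in hypoxia, 1 rose (IMPDH2) and 1 (DHODH) did not pass the test. The falls ran from 6.10-fold for CAD to 1.23-fold for RRM2, and IMPDH2 rose 1.43-fold. Of the 16411 tested genes 62.2% passed the test, 31.0% by falling and 31.2% by rising, by edgeR's quasi-likelihood test at an adjusted p under 0.05. Every hypoxia library lay below every normoxia library for 7 of the 9, against 34.4% of tested genes, and above for 1 of the 9, against 33.4%. The median log2 change was -0.98 over the 9 and 0.01 over all tested genes. Levels are CPM, counts scaled to a common library total after TMM normalization, given as mean ± SD (n = 3 per group), and changes are hypoxia against normoxia on the log2 scale with their standard error (SE).

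**Figure D1:**
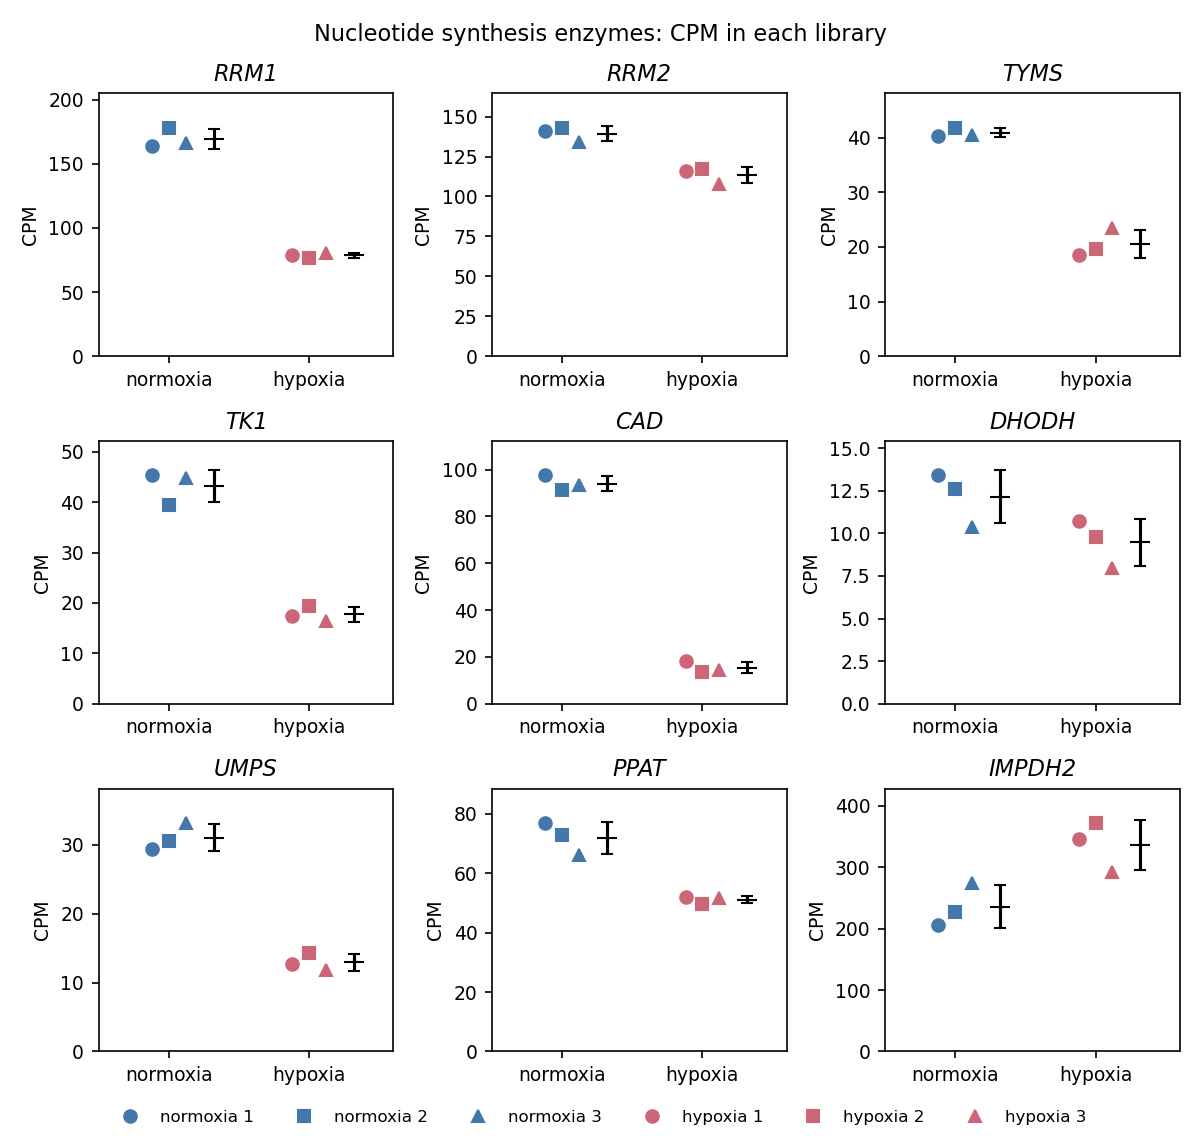
CPM of each of the 9 enzymes (vertical axes, each starting at 0) in the 3 normoxia libraries (blue) and the 3 hypoxia libraries (red), with the marker shape giving the replicate number and black bars the mean ± SD. The hypoxia libraries lie below the normoxia libraries in 7 panels, above them for IMPDH2, and partly overlap them for DHODH, where hypoxia replicate 1 lies above normoxia replicate 3.

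Markers of S phase moved in the same samples. Of 12 listed S-phase and proliferation genes 10 fell and 0 rose, where 31.0% and 31.2% of all tested genes did. The median log2 change of the 12 was -1.84. Their summed level was 1340 to 1400 CPM in normoxia and 692 to 973 CPM in hypoxia, much of it MKI67. Without MKI67 the other 11 genes summed to 648 to 699 CPM in normoxia and 166 to 190 CPM in hypoxia. PCNA, the sliding clamp of DNA polymerases, was 19.3% of its normoxia level and MKI67, present in all cycling cells, 91.3% (edgeR adjusted p = 0.461). The hypoxia libraries disagreed on MKI67, with 501, 610 and 793 CPM in replicates 1 to 3 against 685, 697 and 704 CPM in normoxia. Hypoxia replicate 3 was thus above all normoxia libraries and hypoxia replicates 1 and 2 below them. Among the enzymes, RRM2 was 81.6%, TYMS 50.3%, RRM1 46.4% and TK1 41.1% of the normoxia level. In bulk RNA, fewer cells in S phase and less RNA per cell cannot be told apart, and the part of the S-phase markers in these changes was not tested.

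Library totals ran from 10619864 to 19554178 counts. On the principal components of log2 CPM, oxygen separated the libraries on the first (80.9% of the variance), while on the second (7.83%) hypoxia replicate 3 lay at 47.7 and hypoxia replicates 1 and 2 at -27.2 and -20.1. All 8 oxygen-response genes listed as a check rose, where 31.2% of all tested genes rose and 31.0% fell. Of 8 meningioma and arachnoid markers 7 were tested, and 4 rose (VIM, DSP, MUC1 and CRABP2), 2 fell (NF2 and SSTR2) and CDH2 did not pass. Their summed level, most of it VIM, was 2960 to 3850 CPM in normoxia and 6210 to 7760 CPM in hypoxia. SSTR2 had 2 to 26 counts a library and PTGDS, the marker not tested, at most 1. The summed level of 8 markers of leukocytes, endothelium, epithelium and glia stayed between 3.03 and 3.94 CPM in normoxia and between 2.0 and 5.88 CPM in hypoxia. Scaling by library totals alone moved the median of all genes to -0.30 and the share of calls that were higher from 50.1% to 33.1%, so each change below is relative to the scaling used.

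CAD carries the first 3 activities of pyrimidine synthesis on a single chain (ENSG00000084774, GRCh38 chromosome 2, 27217390 to 27243943, plus strand). It stood at 97.5, 91.1 and 93.2 CPM in normoxia replicates 1 to 3 and at 18.3, 13.8 and 14.3 CPM in hypoxia replicates 1 to 3. Even the highest hypoxia library was far below the lowest normoxia library. The log2 change was -2.61 ± 0.13 (SE; edgeR adjusted p = 7.09e-08), and only 2.69% of tested genes had a lower log2 change.

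UMPS joins the finished ring to ribose phosphate and removes a carboxyl group to give UMP (ENSG00000114491, chromosome 3, 124730366 to 124749273, plus strand). Its levels were 29.4, 30.6 and 33.2 CPM in normoxia and 12.7, 14.3 and 11.8 CPM in hypoxia. The groups did not overlap, and the log2 change was -1.27 ± 0.13 (SE; edgeR adjusted p = 1.37e-05). DHODH, the mitochondrial step between CAD and UMPS (ENSG00000102967, chromosome 16, 72008588 to 72027664, plus strand), was at 13.4, 12.6 and 10.4 CPM in normoxia and at 10.7, 9.76 and 7.98 CPM in hypoxia. Hypoxia replicate 1 was above normoxia replicate 3, so the groups overlapped. Its log2 change was -0.37 ± 0.18 (SE; edgeR adjusted p = 0.0944) with a 95% interval, not adjusted for the number of genes, from -0.76 to 0.03. DHODH passed with library totals alone (-0.68, adjusted p = 0.00730) and with no filter on low counts (-0.49, adjusted p = 0.0440).

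Below UMP the pathway ends with the CTP synthases CTPS1 and CTPS2. Of the 5 de novo pyrimidine genes 4 fell and 0 rose, against 31.0% and 31.2% of all tested genes. CTPS1 went from 49.1, 51.3 and 47.2 CPM to 4.31, 4.78 and 5.64 CPM, and its log2 change was -3.30 ± 0.14 (SE; edgeR adjusted p = 3.21e-08). CTPS2 changed by -0.83 ± 0.14 (SE; edgeR adjusted p = 3.28e-04). In sum the 5 genes took 206 to 212 CPM in the normoxia libraries and 51.1 to 58.2 CPM in the hypoxia libraries. Their median log2 change was -1.27.

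PPAT attaches the first nitrogen of the purine ring to ribose phosphate (ENSG00000128059, chromosome 4, 56393362 to 56435615, minus strand). It was at 76.9, 72.7 and 66.2 CPM in normoxia and at 51.9, 49.7 and 51.6 CPM in hypoxia. The hypoxia libraries lay close together and below all normoxia libraries. The log2 change was -0.50 ± 0.10 (SE; edgeR adjusted p = 0.00129). A processed copy, PPATP1, held 42 counts over the 6 libraries, or 0.711% of the PPAT counts.

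Other genes on the way to IMP moved in both directions: of 10, PPAT included, 6 fell, 2 rose and 2 did not pass. Of all tested genes 31.0% fell and 31.2% rose. The median log2 change of the 10 was -0.43. PFAS, the amidotransferase that adds the second ring nitrogen taken from glutamine, went from 57.8, 52.2 and 60.8 CPM to 7.15, 5.59 and 6.12 CPM, a 9.07-fold fall (edgeR adjusted p = 3.31e-08). GART, which carries 3 steps of the pathway, fell 4.36-fold. Its annotated exons share 275 bases with a gene on the opposite strand that held 30710 counts against 8455 for GART. Reads there cannot be assigned for certain. PRPS1, which makes the activated ribose, fell 3.45-fold, and ATIC, which closes the ring, fell 2.03-fold. Against these, PRPSAP1, a subunit associated with PRPS enzymes, rose by 0.71 ± 0.13 on the log2 scale (SE; edgeR adjusted p = 7.99e-04).

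PAICS, whose start faces away from that of PPAT across the stretch printed above, was at 321, 358 and 341 CPM in normoxia and at 417, 448 and 431 CPM in hypoxia. The hypoxia libraries were above the normoxia libraries, and the log2 change was 0.34 ± 0.09 (SE; edgeR adjusted p = 0.00654). That call was lost under scaling by library totals (0.037, adjusted p = 0.762), with no filter on low counts (0.22, adjusted p = 0.173) and without normoxia replicate 1 (0.28, adjusted p = 0.0556). A ratio of genes within a library cancels the scaling. The log2 ratio of PAICS to PPAT was 2.06, 2.30 and 2.36 in normoxia and 3.00, 3.17 and 3.06 in hypoxia. It was 0.84 higher in hypoxia, with no overlap of the groups (exact permutation test, two-sided, p = 0.10, which is the smallest p that 3 against 3 libraries allow).

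IMPDH2 oxidises IMP on the way to GMP (ENSG00000178035, chromosome 3, 49024325 to 49029408, minus strand). Its levels were 206, 227 and 274 CPM in normoxia and 346, 372 and 292 CPM in hypoxia. The lowest hypoxia library, replicate 3, was only a little above the highest normoxia library, also replicate 3. The log2 change was 0.51 ± 0.13 (SE; edgeR adjusted p = 0.00484), and with library totals alone it was 0.21 (adjusted p = 0.154). IMPDH1, the second enzyme for the same step, was at 16.7, 12.6 and 14.6 CPM in normoxia and at 35.2, 27.0 and 28.4 CPM in hypoxia, a 2.06-fold rise (edgeR adjusted p = 1.65e-04). The log2 ratio of IMPDH1 to IMPDH2 was -4.00 ± 0.33 in normoxia and -3.47 ± 0.26 in hypoxia (SD, n = 3 each; exact permutation test, two-sided, p = 0.20), and the groups overlapped. On the other branch from IMP, ADSS2, on the way to AMP, fell 2.89-fold (edgeR adjusted p = 1.23e-06), while for GMPS, which finishes GMP, the log2 change was -0.18 ± 0.08 (SE; adjusted p = 0.0899).

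RRM1 binds the ribonucleotide substrates and the nucleotides that regulate the reductase (ENSG00000167325, chromosome 11, 4094707 to 4138876, plus strand). It was at 164, 178 and 166 CPM in normoxia and at 79.2, 76.4 and 80.2 CPM in hypoxia. The spread within each group was small beside the gap between them, and the log2 change was -1.11 ± 0.09 (SE; edgeR adjusted p = 1.97e-06). RRM2, the small subunit of dividing cells (ENSG00000171848, chromosome 2, 10120698 to 10131419, plus strand), was at 141, 143 and 134 CPM in normoxia and at 116, 117 and 108 CPM in hypoxia. These groups did not overlap either, but the change was small, -0.29 ± 0.09 (SE; edgeR adjusted p = 0.0127) with a 95% interval from -0.49 to -0.10, and 38.3% of tested genes had a lower log2 change. With library totals alone the RRM2 change was -0.60. Processed copies of RRM2 held 7, 3 and 0 counts in all. Annotated exons of RRM2 share 1077 bases with another gene on the same strand, for which no counts were found. Reads there cannot be assigned for certain.

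The subunits of the reductase thus changed by unequal amounts. The log2 ratio of RRM2 to RRM1 was -0.21, -0.31 and -0.31 in normoxia and 0.55, 0.61 and 0.43 in hypoxia. RRM1 counts led in every normoxia library and RRM2 counts in every hypoxia library, a difference of 0.81 (exact permutation test, two-sided, p = 0.10, the smallest possible here). RRM2B, the alternative small subunit that p53 induces, was at 81.1, 92.9 and 85.7 CPM in normoxia and at 76.7, 72.7 and 118 CPM in hypoxia. Hypoxia replicate 3 was the highest of all libraries and the other hypoxia libraries the lowest, and the log2 change, 0.05 ± 0.17 (SE; edgeR adjusted p = 0.831), became -0.24 (adjusted p = 0.0277) without hypoxia replicate 3. Accordingly the log2 ratio of RRM2B to RRM2 was -0.60, -0.68 and 0.12 in the hypoxia libraries, against -0.80, -0.62 and -0.64 in normoxia (difference 0.30, exact permutation test, two-sided, p = 0.40). Without hypoxia replicate 3 this difference was 0.05.

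**Figure D2:**
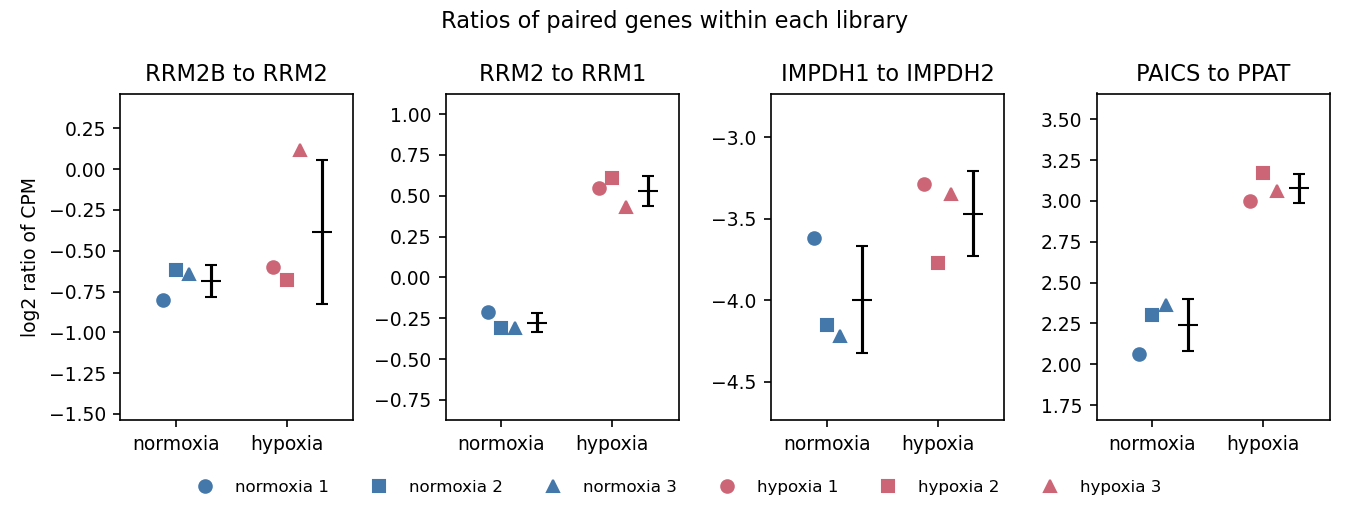
Log2 ratio of CPM between paired genes within each library (vertical axes, each spanning 2 log2 units) for normoxia (blue) and hypoxia (red), with marker shapes for replicate numbers and black bars for the mean ± SD. The ratios of RRM2 to RRM1 and of PAICS to PPAT are higher in every hypoxia library, whereas RRM2B to RRM2 is set apart in hypoxia replicate 3 alone, at 0.12.

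TYMS methylates dUMP to thymidylate (ENSG00000176890, chromosome 18, 657604 to 673578, plus strand). It was at 40.3, 41.8 and 40.5 CPM in normoxia and at 18.6, 19.6 and 23.5 CPM in hypoxia. All hypoxia libraries lay far below normoxia, with replicate 3 the highest of them, and the log2 change was -0.98 ± 0.12 (SE; edgeR adjusted p = 5.13e-05). Annotated exons of TYMS share 967 bases with ENOSF1 on the opposite strand, and the strand setting of the counting is not given in the sources used here, so reads there cannot be assigned for certain. ENOSF1 itself was at 38.0 ± 5.97 CPM in normoxia and 36.8 ± 4.13 CPM in hypoxia (SD, n = 3 each; edgeR adjusted p = 0.781).

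Of the 6 thymidylate genes, 5 fell and 0 rose, against 31.0% and 31.2% of all tested genes. Their median log2 change was -1.10. DUT, which turns dUTP into the dUMP that TYMS takes, fell 2.32-fold, and the thymidylate kinase DTYMK fell 1.56-fold. For DCTD, the deaminase that supplies dUMP from dCMP, the log2 change was 0.01 ± 0.10 (SE; edgeR adjusted p = 0.965).

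TK1 phosphorylates thymidine in the cytosol (ENSG00000167900, chromosome 17, 78174075 to 78187233, minus strand). It was at 45.3, 39.5 and 44.7 CPM in normoxia and at 17.5, 19.4 and 16.4 CPM in hypoxia. The groups were well apart, and the log2 change was -1.29 ± 0.12 (SE; edgeR adjusted p = 7.06e-06). Of 10 salvage genes, TK1 included, 6 fell, 2 rose and 2 did not pass, where 31.0% of all tested genes fell and 31.2% rose. The median log2 change of the 10 was -0.35. The mitochondrial thymidine kinase TK2 went from 12.3, 11.1 and 12.5 CPM to 3.26, 3.86 and 1.20 CPM, a 4.53-fold fall. UCK2, a uridine and cytidine kinase, fell 2.36-fold, and the deoxycytidine kinase DCK fell 2.20-fold. Exons of UCK2 share 225 bases and those of DCK 199 bases with a gene of more counts, so reads there cannot be assigned for certain. UCK1, a second uridine and cytidine kinase, rose 1.48-fold (edgeR adjusted p = 0.0103), a call lost when normoxia replicate 2 was left out (0.48, adjusted p = 0.0638) or library totals were used alone (0.26, adjusted p = 0.175).

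Per kilobase of annotated exon, IMPDH2 had the highest level of the 9 in both groups, at 85.0 ± 12.5 CPM per kilobase in normoxia and 121 ± 14.7 in hypoxia. In normoxia RRM1 (40.5), RRM2 (26.2), TK1 (23.2), TYMS (16.6), PPAT (13.2), CAD (11.2), UMPS (4.10) and DHODH (1.75 CPM per kilobase) followed, and no neighbours in this order had overlapping ranges. In hypoxia RRM2, at 21.4 ± 0.867 CPM per kilobase, stood above RRM1, at 18.8 ± 0.471. TK1, PPAT and TYMS came next at 9.54, 9.39 and 8.33 CPM per kilobase, with ranges that overlapped between neighbours. CAD and UMPS, well apart in normoxia, had overlapping ranges at 1.84 and 1.71 CPM per kilobase, and DHODH was last at 1.37. Lengths are the union of all annotated exons, so a gene with long exons that these cells do not use is placed too low.

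Beyond the synthesis steps, the wider lists moved in mixed directions. Over all 80 listed nucleotide genes 75 were tested, of which 37 fell and 16 rose, or 49.3% and 21.3% against 31.0% and 31.2% of all tested genes, with a median log2 change of -0.38. Without the 9 enzymes 30 of 66 fell and 15 rose, and these 66 still include other synthesis genes such as PFAS, GART and CTPS1. Among 14 nucleotide kinases 11 were tested, and 4 rose and 2 fell (36.4% and 18.2%), a share of rises near that of all tested genes. GUK1, which phosphorylates GMP and dGMP, rose 4.58-fold to 265, 223 and 137 CPM, and the mitochondrial adenylate kinase AK4 rose 3.31-fold. NME1, a nucleoside diphosphate kinase, fell 2.31-fold. Reads of NME1 overlap a read-through gene that joins it to NME2.

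Of 22 genes of breakdown and pool cleaning, 20 were tested, of which 10 fell and 4 rose, where 31.0% and 31.2% of all tested genes did. The AMP deaminases AMPD3 and AMPD2, which turn AMP into IMP, rose 6.72-fold and 4.26-fold (edgeR adjusted p = 7.76e-08 and 1.91e-07). Exons of AMPD2 share 132 bases with a gene of more counts on the same strand, so reads there cannot be assigned for certain. AMPD3 was at 17.9, 23.3 and 20.9 CPM in normoxia and at 137, 158 and 123 CPM in hypoxia. SAMHD1, which breaks down deoxynucleotide triphosphates, went the other way, from 42.7, 50.2 and 48.7 CPM to 11.8, 13.6 and 12.4 CPM (3.75-fold, adjusted p = 5.42e-07), and DNPH1, which hydrolyses deoxynucleotide monophosphates, fell 2.34-fold. Of 5 transporters 2 rose and 1 fell, too few to set against those shares. SLC25A36, a mitochondrial pyrimidine nucleotide carrier, rose 3.58-fold, and the nucleoside transporter SLC29A1 rose 2.72-fold, with 151, 157 and 64.3 CPM in the hypoxia libraries. SLC25A33, the related mitochondrial carrier, fell 2.49-fold from a low level of 3.41 ± 0.476 CPM (SD, n = 3).

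**Figure D3:**
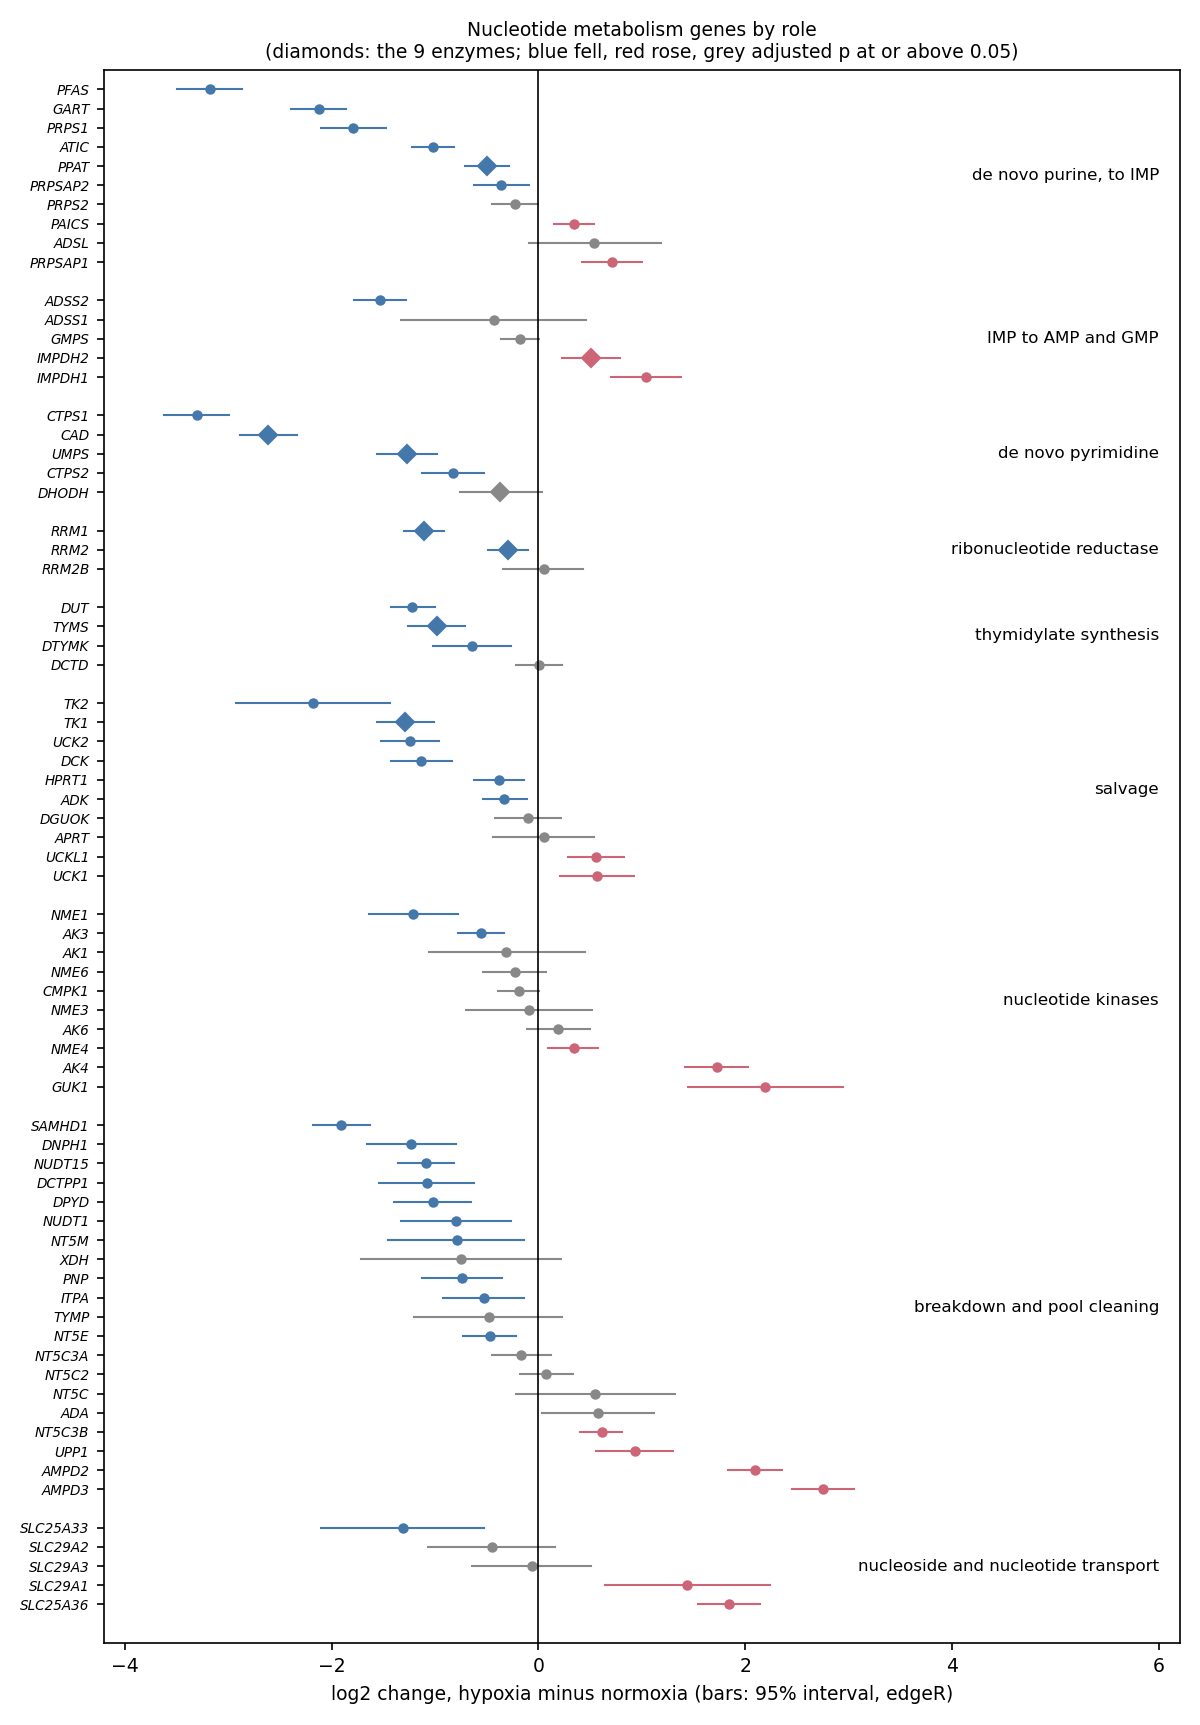
Log2 change of 72 of the 75 tested nucleotide genes (horizontal axis, points) with 95% intervals that are not adjusted for the number of genes (bars), grouped by role, with the 9 enzymes as diamonds. Blue marks genes that fell, red genes that rose and grey those with an adjusted p at or above 0.05. The de novo pyrimidine, ribonucleotide reductase and thymidylate groups hold no red point.

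The genes whose profile over the 6 libraries was most like that of a member were found by the root mean square difference of log2 CPM, each gene centred on its own normoxia mean, among genes of at least 10 CPM. Those of CAD included VMA21 and LRP8, at 0.077 and 0.083. RRM1 was nearest to GFOD1, CNOT6 and CSTF3, at 0.035, 0.037 and 0.046, and RRM2 to RECQL, LPIN1 and ALKBH3, at 0.025, 0.027 and 0.034. ERCC8 was among the nearest 3 of both TK1 and UMPS, at 0.066 and 0.057. IMPDH2 was nearest to VIPAS39 at 0.066. None of the nearest 3 of any enzyme was another of the 9. All profiles share the same 6 libraries, and most of a profile is the step between the groups.

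**Figure D4:**
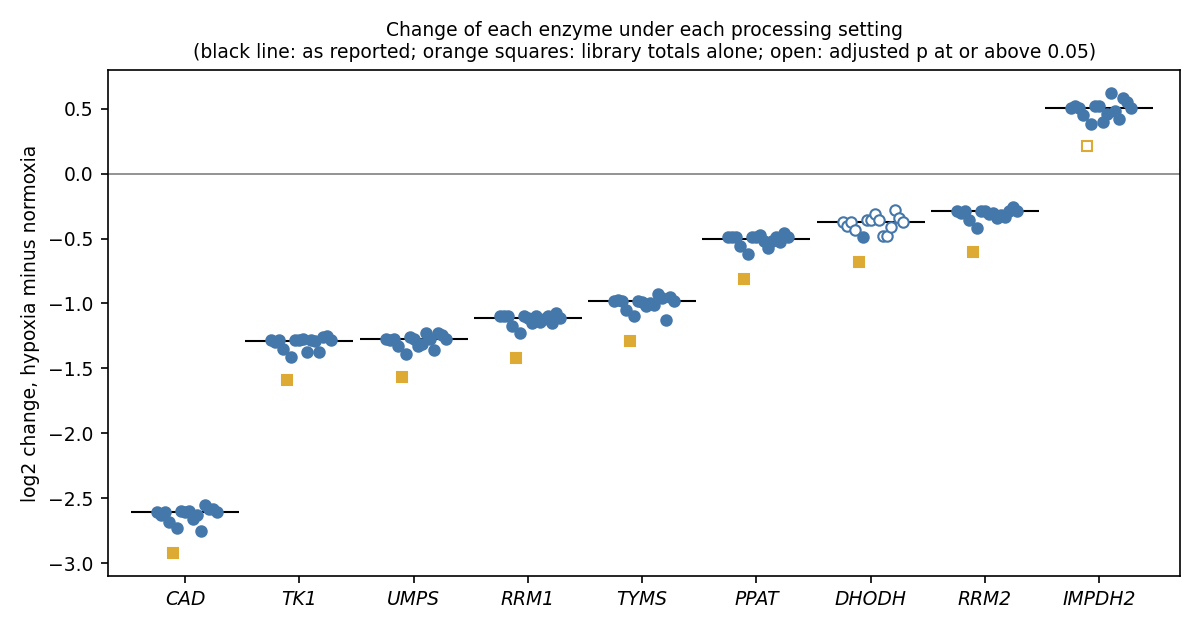
Log2 change of each enzyme (vertical axis) as reported (black line) and under each alternative processing (points), with library totals alone as orange squares and open symbols for an adjusted p at or above 0.05. The order from CAD to IMPDH2 spans -2.61 to 0.51 as reported, and library totals alone lie lowest for every enzyme.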

How the data were processed

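RNA sequencing of 6 IOMM-Lee libraries was used. The table deposited by the authors gives unnormalized read counts, 1 line per Ensembl gene. Per the submitters' processing notes, the build was GRCh38.p13 and the tools included HISAT2 2.1.0, featureCounts 2.0.1, fastp 0.20.1 and DESeq2 1.37.5. How RNA was selected, the strand setting and the annotation release were not given in the sources used here. Of 61860 lines, 1 names no gene (0.00243% of counts) and was left out. A second deposited table, whose cells run together, was not used. Symbols matched 61756 of 61859 genes. Positions and exon lengths are from GENCODE 29 (GRCh38) and start windows from RefSeq (GRCh38.p14).

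Counts were tested with edgeR 4.0.16 in R 4.3.3: filterByExpr (minimum count 10, total 15) kept 16411 genes, followed by TMM factors (0.866 to 1.16), robust quasi-likelihood F tests of hypoxia against normoxia and Benjamini-Hochberg adjustment over all tested genes at 0.05. The SE is the log2 change divided by the square root of F. A floor of 3 counts corresponds to 0.133 to 0.315 CPM and covers counting error only. Log2 CPM for ratios and profiles used a prior count of 2. No replicates were duplicates (chi-square per gene between replicates 5.75 to 39.3). Scripts were tested on simulated data. The members and lists were chosen with earlier results of these data known. Named genes were the 9 enzymes, up to 4 other called genes per list by size of change, genes of the ratios, and the 3 nearest profiles; PRPSAP1, DCTD, GMPS, the meningioma markers other than VIM and SSTR2, and the overlapping gene ENOSF1 were added after their values were seen. Some genes that the rule names are not reported here and are left out of the plot by role, but the counts and medians of lists include them. Alternatives were DESeq2 1.42.0, limma-voom (limma 3.58.1), other scalings and filters, a replicate block and leaving out each library.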

Additional observations from a re-analysis of the deposited data

How the results depend on the processing

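The counts of enzymes that fell (7) and rose (1) were the same with DESeq2, limma-voom, RLE and upper-quartile scaling, a filter at 1 CPM in 3 libraries, protein-coding genes alone, without the 10 most abundant genes and without each library in turn. With library totals alone 8 fell and 0 rose, since DHODH passed and IMPDH2 did not, and with no filter 8 fell. Of 144 values of the 9 enzymes under these alternatives, 0 changed direction. RRM2 stayed between -0.60 and -0.26 with adjusted p up to 0.0466, reached without normoxia replicate 2. RRM2B, at 0.05, turned to -0.026 with upper-quartile scaling, -0.26 with library totals alone, -0.068 with no filter, -0.024 without normoxia replicate 1 and -0.24 without hypoxia replicate 3, and the cause was not tested. Leaving out 1 library at a time gave RRM2B values from -0.24 to 0.16. For the 80 listed genes, the counts that fell ranged from 34 to 46 and those that rose from 11 to 17, with 46 and 11 for library totals alone.

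Replicate numbers are shared between groups, but deviations of same-numbered libraries correlated at -0.106, 0.0864 and -0.0378. Of the 3 normoxia libraries 1 correlated best with its own number. Deviations from a mean of 3 libraries depend on one another, so these correlations cannot decide whether the libraries were paired. With the replicate block 7 enzymes fell and 1 rose, and over all genes 4863 were higher and 4906 lower, against 5117 and 5091 without it. Limma on the deposited normalized values, planned with pseudocounts of 1 and 0.1, was not run because that table was not used. Counts of the enzymes ranged from 96 (DHODH, hypoxia replicate 2) to 4862 (IMPDH2, hypoxia replicate 3), so counting error weighs most on DHODH.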
